A study of Mus musculus with 8 samples.

Results

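The genes described here are 33 transcripts of B cells, T cells and lymphoid tissue, measured in the subcutaneous fat of 8 male diabetic mice. They were chosen by name and role, with earlier results of these arrays known, as 13 B cell genes, 11 T cell genes, 6 genes of lymphocyte homing and lymphoid organs, and 3 genes shared by most lymphocytes. Each gene was read by the brightest of the probe sets that name it alone. Of the 33 genes, 30 had such a probe set, out of 18193 genes with one on the Affymetrix Mouse Genome 430 2.0 array. Lck was not named in the annotation used, and Ccl21a and Ccl19 were named only together with other genes, so these 3 are given no values.

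The 4 supplemented mice (13, 11, 9 and 5) had been gavaged with niacin-bound chromium (NBC) in water, at 10 mg per kg body weight on 5 days per week for 10 weeks. The 4 placebo mice (6, 8, 10 and 14) had received water only over the same 10 weeks, by a route the labels do not state. The labels give an age of 8 weeks, male sex and subcutaneous fat for both groups, and the series title calls the mice diabetic. No strain, kind of diabetes or site of the depot is named in the sources used here. One array was made per mouse. With 4 arrays a group, precision is limited by their number.

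B cells recognise antigen with a membrane immunoglobulin that signals through the CD79 chains, and T cells with a receptor that signals through the CD3 chains. Both meet antigen in lymph nodes, which they enter through specialised venules under the guidance of the chemokines CXCL13, CCL19 and CCL21 and their receptors CXCR5 and CCR7. Several subcutaneous fat depots of the mouse enclose a lymph node, and single lymphocytes also lie scattered through fat. Whether a sampled piece of fat holds node tissue can therefore differ from mouse to mouse. In tissue RNA, fewer lymphocytes and less RNA per lymphocyte cannot be told apart.

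The start regions of 4 genes whose signals stood far apart between mice are shown, with that of Blnk, which did not share their pattern and held one of the motifs searched. They are the 250 bases before the start in RefSeq (GRCm38.p6), with a motif match in capitals. Cd79a lies at chr7:24897247-24897496 (plus strand), Cd3g at chr9:44980432-44980681 (minus), Cd3d at chr9:44981536-44981785 (plus), Lat at chr7:126369569-126369818 (minus) and Blnk at chr19:40994222-40994471 (minus).
Cd79a: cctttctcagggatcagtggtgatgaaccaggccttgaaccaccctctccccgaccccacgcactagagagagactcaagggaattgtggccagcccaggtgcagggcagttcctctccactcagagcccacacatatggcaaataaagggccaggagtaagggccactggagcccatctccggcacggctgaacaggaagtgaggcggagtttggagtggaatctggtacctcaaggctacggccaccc
Cd3g: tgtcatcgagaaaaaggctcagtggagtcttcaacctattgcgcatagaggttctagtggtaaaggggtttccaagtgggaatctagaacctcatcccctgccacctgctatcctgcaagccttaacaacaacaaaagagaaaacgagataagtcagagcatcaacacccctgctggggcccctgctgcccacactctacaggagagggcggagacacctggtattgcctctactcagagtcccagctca
Cd3d: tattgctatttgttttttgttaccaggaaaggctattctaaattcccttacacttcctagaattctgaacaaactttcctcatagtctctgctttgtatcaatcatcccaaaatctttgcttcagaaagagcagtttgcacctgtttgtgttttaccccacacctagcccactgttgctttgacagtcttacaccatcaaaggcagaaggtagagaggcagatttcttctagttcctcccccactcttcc
Lat: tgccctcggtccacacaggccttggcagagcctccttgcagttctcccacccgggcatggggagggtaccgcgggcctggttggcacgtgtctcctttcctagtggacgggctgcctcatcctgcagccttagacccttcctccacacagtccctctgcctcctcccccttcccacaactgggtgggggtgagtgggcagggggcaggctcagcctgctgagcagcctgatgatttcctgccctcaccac
Blnk: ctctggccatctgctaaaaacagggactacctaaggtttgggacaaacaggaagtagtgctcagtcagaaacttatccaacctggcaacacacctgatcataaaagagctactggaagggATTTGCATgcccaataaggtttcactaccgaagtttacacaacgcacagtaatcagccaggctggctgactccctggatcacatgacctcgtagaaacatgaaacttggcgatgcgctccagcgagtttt
Cd3g and Cd3d point away from each other, with starts 1355 bases apart on chromosome 9. The capitals in the Blnk window are a match, on the opposite strand, to the octamer ATGCAAAT, the site of the factors that Pou2af1 assists. On either strand the octamer occurred in 1.6% of the 32851 windows in the table and in 1 of the 24 genes with a window here. The RUNX motif TGTGGTTT occurred in 1.49% of windows and in 0 of the 24 genes. These matches describe letters only.

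Signals of many of these genes split the NBC mice. Most of the 30 genes had low signals in NBC mice 13 and 11. In NBC mice 9 and 5 their signals were as high as in placebo mice, or higher. The 4 placebo mice lay closer together. In 18 of the 30 genes the 2 lowest of the 8 mice were NBC mice 13 and 11, which held for 3.61% of the 18193 genes with a probe set. All 18 were among the 26 members that were not dim, against 3.9% of the 11662 genes not dim. By role this order held in 9 of 13 B cell, 5 of 10 T cell, 3 of 4 homing and 1 of 3 shared genes. In the lists of other B cell and T cell genes given below, it held in 4 of 15 and 6 of 23. In 12 of the 30 genes mice 13 and 11 lay below every placebo mouse and mice 9 and 5 above every placebo mouse, an order found in 0.396% of the 18193 genes. These 12 were Cd79a, Ms4a1, Cd22, Blk and Bank1 of the B cell genes, Cd3d, Cd3g, Cd2 and Lat of the T cell genes, Ccr7 and Ltb of the homing genes, and Ptprcap. NBC mice 9 and 5 both lay above every placebo mouse in 16 of the 30 genes, against 6.11% of all genes, and mouse 5 was highest in 16 of the 30, against 13.7%. These orders were noticed in these values and then counted.

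**Figure D1:**
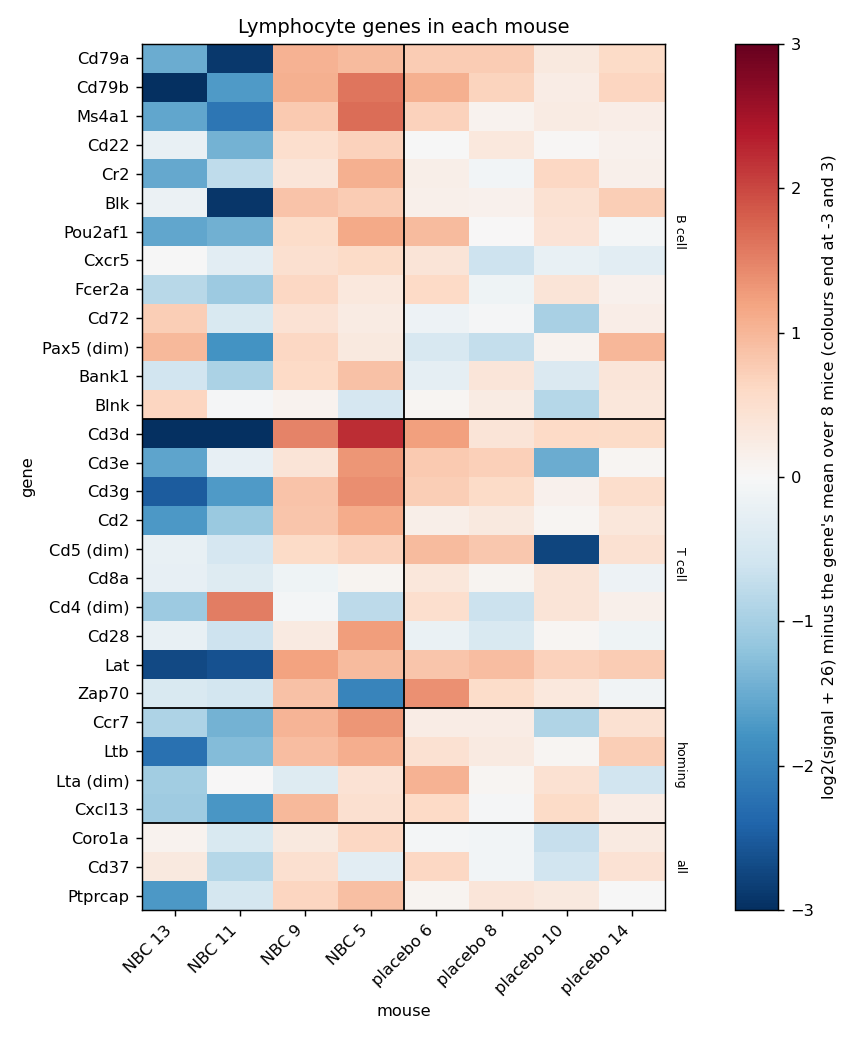
Heat map of the 30 lymphocyte genes (rows, grouped by role) in each mouse (columns, 4 NBC mice left and 4 placebo mice right). Colour is log2(signal + 26) minus the gene's mean over the 8 mice and ends at -3 and 3, and genes marked dim lay below the filter. Mice 13 and 11 hold the 2 lowest values in 18 of the 30 rows, but not in those of Cd72, Blnk and Coro1a.

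Spread over the mice was wide for these genes. The log2 range over the 8 mice had a median of 2.71 in the 30 genes, against 0.97 in all genes with a probe set. A range of at least 2 was seen in 21 of the 30 genes, against 24.6% of all genes with a probe set. Of the 26 members that were not dim it was seen in 17, against 3.34% of all genes not dim. Among the placebo mice alone the median range was 0.83 in the 30 genes and 0.60 in all genes. The SD of the log2 values was wider in NBC than in placebo mice for 24 of the 30 genes, against 60.1% of all genes with a probe set. It was wider for 22 of the 26 members not dim, against 64.6% of all genes not dim.

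The antigen receptor chain Cd79a (probe set 1418830_at) read 251, 79.0, 1587 and 1464 in NBC mice 13, 11, 9 and 5, against 1287, 1287, 925 and 1136 in placebo mice 6, 8, 10 and 14. Its partner chain Cd79b (1417640_at) read 32.1, 186, 1412 and 2081 in the NBC mice, against 1430, 1074, 778 and 1056 in the placebo mice, in the same order. Both chains, which carry the signal of the B cell receptor into the cell, were lowest in NBC mice 13 and 11. The Cd79b signal of 32.1 in mouse 13 lay close to the 10th percentile of all values (26.5), where signals carry little information on level. Ms4a1, which encodes the B cell surface protein CD20, read 214, 132, 1200 and 2222 in the NBC mice, against 1125, 735, 812 and 789 in the placebo mice. The inhibitory co-receptor Cd22 read 817, 339, 1371 and 1552 in the NBC mice, against 950, 1192, 972 and 1043 in the placebo mice. On these probe sets of both genes, NBC mice 9 and 5 stood above and mice 13 and 11 below all placebo mice. The groups thus overlapped. A second Ms4a1 probe set, 1450912_at, read 125, 123, 676 and 1430 in the NBC mice, against 932, 618, 547 and 759 in the placebo mice. NBC mouse 9 lay below placebo mice 6 and 14 there. The second Cd22 probe set, 1419769_at, lay below the filter. It read 166, 13.4, 331 and 31.0 in the NBC mice, against 105, 63.3, 292 and 115 in the placebo mice.

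Other B cell genes varied in the same way. Blk, a Src-family kinase of B cells, read 267, 18.2, 578 and 537 in the NBC mice, against 347, 338, 432 and 527 in the placebo mice. Pou2af1, a co-activator at octamer sites, read 159, 172, 765 and 1176 in the NBC mice, against 1027, 520, 694 and 494 in the placebo mice. Cr2 and Fcer2a, receptors for complement and for IgE that follicular dendritic cells also carry, had their lowest 2 signals in mice 13 and 11 as well. Cr2 read 138, 257, 589 and 968 in the NBC mice, and 421 to 706 in the placebo mice. Fcer2a read 167, 137, 504 and 399 in the NBC mice, and 286 to 497 in the placebo mice. Bank1, a scaffold of the B cell receptor pathway, read 466, 358, 1081 and 1332 in the NBC mice, against 587, 925, 517 and 926 in the placebo mice.

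In 4 of the 13 B cell genes mice 13 and 11 were not the 2 lowest. The adaptor Blnk, which macrophages express too, read 7529, 4690, 5178 and 3352 in the NBC mice, against 5016, 5650, 2614 and 6019 in the placebo mice. Cd72, a co-receptor of B cells that is also found on macrophages, read 1869, 796, 1500 and 1303 in the NBC mice, against 990, 1077, 545 and 1263 in the placebo mice. The peak of both was in NBC mouse 13 and the minimum in placebo mouse 10. Mouse 13 thus had the highest Blnk and Cd72 and the lowest Cd79b of all mice. The chemokine receptor Cxcr5, which leads B cells into follicles, was highest in NBC mice 5 (427) and 9 (399) and spanned 218 to 427 in the NBC and 172 to 372 in the placebo mice. Pax5, the transcription factor of B cell identity, lay below the filter. It read 435, 42.9, 336 and 263 in the NBC mice, against 144, 120, 229 and 447 in the placebo mice.

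Among the T cell genes, Cd3d (1422828_at) read 26.1, 24.9, 1350 and 2247 in NBC mice 13, 11, 9 and 5, against 1127, 608, 717 and 696 in placebo mice 6, 8, 10 and 14. The signals in mice 13 and 11 exceeded only 8.2% and 10.3% of the probe sets on their own arrays. Those in the other 6 mice exceeded 62.8% to 81.3%. Cd3g (1419178_at), another chain of the receptor complex, read 65.6, 133, 914 and 1336 in the NBC mice, against 834, 748, 537 and 724 in the placebo mice. Lat (1460651_at), the membrane scaffold that relays the receptor's signal, read 46.8, 51.6, 1073 and 902 in the NBC mice, against 822, 876, 743 and 778 in the placebo mice. The placebo mice differed little in Lat, with a range of 0.23 on the log2 scale, where all 8 mice spanned 3.92. Cd2, an adhesion receptor of T cells and natural killer cells, read 83.3, 142, 625 and 762 in the NBC mice, against 384, 422, 351 and 435 in the placebo mice.

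**Figure D2:**
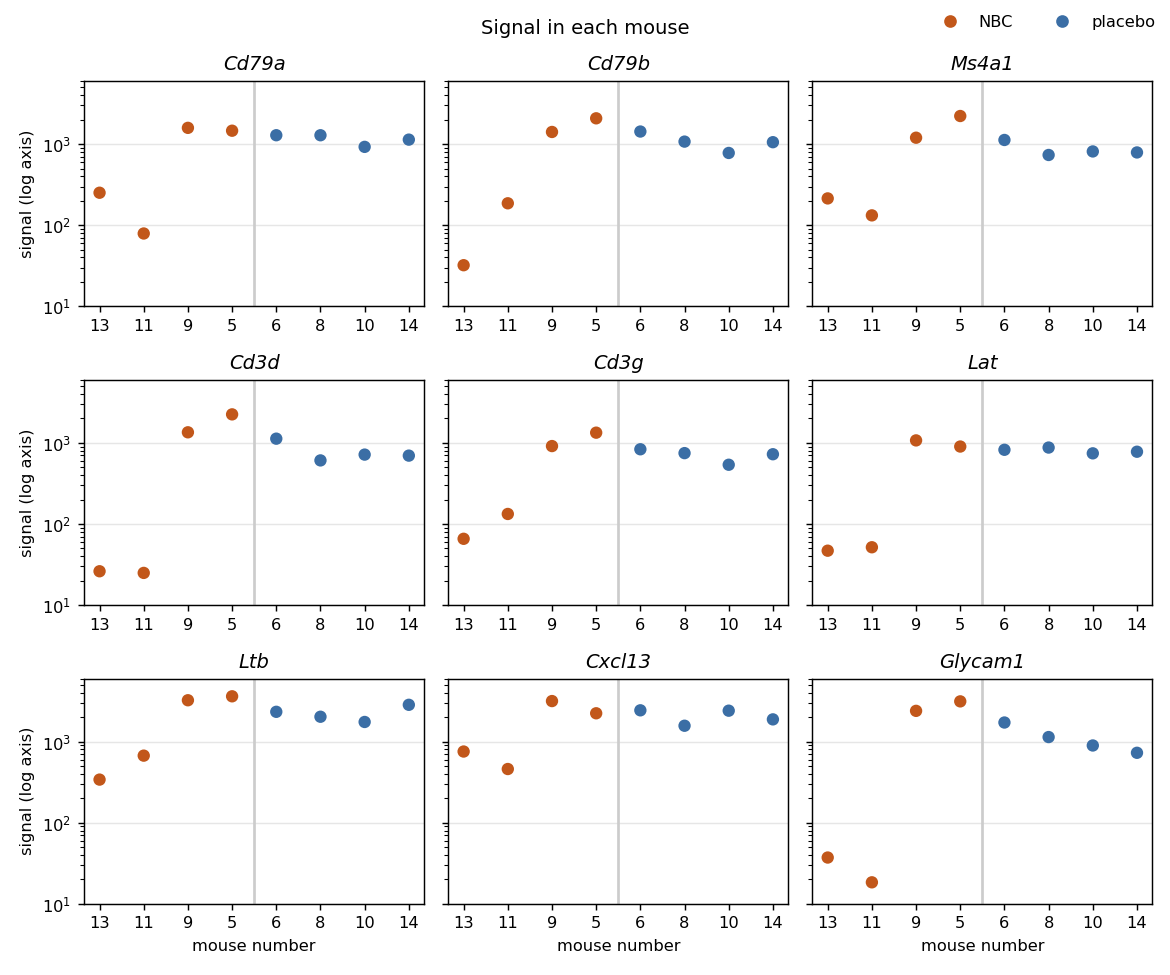
Signal of 8 lymphocyte genes and of Glycam1 in each mouse, with the NBC mice left of the placebo mice on the horizontal axis and the deposited signal on a logarithmic vertical axis. In each panel mice 13 and 11 are the lowest points, at 26.1 and 24.9 for Cd3d and at 37.2 and 18.4 for Glycam1.

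The other T cell genes were less uniform. Cd3e read 118, 341, 540 and 1059 in the NBC mice, against 718, 682, 129 and 427 in the placebo mice, so that placebo mouse 10 was nearly as low as NBC mouse 13. Zap70, the kinase that docks on the activated receptor, read 551, 514, 1437 and 177 in the NBC mice, against 2026, 1149, 958 and 715 in the placebo mice. On this probe set its lowest signal was in NBC mouse 5, which had the highest Cd3d. The other 2 Zap70 probe sets lay below the filter, and mouse 5 was not lowest on either. On 1422701_at the NBC mice read 37.4, 205, 444 and 291, against 145, 357, 138 and 307 in the placebo mice. On 1440178_x_at mouse 5 read 319, and placebo mouse 14 was lowest (42.3). The costimulatory receptor Cd28 read 301, 222, 434 and 881 in the NBC mice, and 248 to 371 in the placebo mice.

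For the co-receptor Cd8a the brightest probe set, 1440164_x_at, read 470, 425, 508 and 594 in the NBC mice, against 712, 591, 744 and 504 in the placebo mice. Its probe set 1425335_at read 109, 84.9, 591 and 494 in the NBC mice, against 455, 725, 542 and 269 in the placebo mice. Mice 13 and 11 were lowest on both, by a wider margin on 1425335_at. Cd8a had 5 probe sets. The second brightest, 1444078_at, read 162, 292, 790 and 863 in the NBC mice, against 421, 382, 527 and 524 in the placebo mice. Mice 13 and 11 were lowest there too, with mice 9 and 5 above all placebo mice. The log2 difference was -0.33 on 1440164_x_at, -0.09 on 1444078_at and -0.91 on 1425335_at. The remaining Cd8a probe sets lay below the filter and gave other orders. The co-receptor gene Cd4 and Cd5, a brake on antigen receptor signals, lay below the filter. Cd4 read 47.3, 427, 122 and 64.3 in the NBC mice, against 194, 72.7, 178 and 147 in the placebo mice. Its highest signal was thus in NBC mouse 11. Cd5 read 192, 154, 356 and 385 in the NBC mice, against 470, 419, 11.8 and 324 in the placebo mice.

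Genes of lymphocyte homing and of lymphoid organs showed the split too. Ltb, the lymphotoxin subunit that lymphocytes display to the stromal cells of lymph nodes, read 340, 672, 3240 and 3625 in NBC mice 13, 11, 9 and 5, against 2333, 2028, 1748 and 2846 in placebo mice 6, 8, 10 and 14. Cxcl13, the follicular chemokine that attracts B cells, read 755, 460, 3166 and 2238 in the NBC mice, against 2434, 1571, 2409 and 1882 in the placebo mice. Ccr7, the receptor that draws T cells and dendritic cells into the node, read 192, 127, 815 and 1010 in the NBC mice, against 453, 455, 194 and 537 in the placebo mice. On these probe sets mice 13 and 11 had the lowest signals of all 3 genes. A second Cxcl13 probe set, 1448859_at, read 649, 518, 1526 and 626 in the NBC mice, against 1329, 1076, 1419 and 662 in the placebo mice, so that NBC mouse 5 lay below mouse 13 there. For Ccr7, placebo mouse 10 was almost as low as mouse 13. Lta, the soluble lymphotoxin, lay below the filter and spanned 66.7 to 230 in the NBC and 102 to 368 in the placebo mice.

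Of the genes shared by most lymphocytes, Ptprcap, a partner of the CD45 phosphatase in lymphocytes, read 272, 665, 1530 and 1821 in the NBC mice, against 1018, 1243, 1179 and 954 in the placebo mice. Coro1a, an actin regulator of all leukocytes, read 10378, 6954, 11696 and 14886 in the NBC mice, against 9193, 9062, 5942 and 11511 in the placebo mice. Cd37, a tetraspanin of leukocytes, read 1940, 851, 2200 and 1258 in the NBC mice, against 2421, 1493, 1056 and 2136 in the placebo mice. Ptprcap had its 2 lowest signals in mice 13 and 11. Coro1a was lowest in placebo mouse 10, and Cd37 in NBC mouse 11 with placebo mouse 10 next. Their second probe sets gave other orders: Coro1a on 1416246_a_at was lowest in NBC mouse 11 (5783), and Cd37 on 1425736_at was lowest in placebo mouse 14 (371).

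Averaged over each role, the centred log2 level was -0.71, -1.38, 0.62 and 0.74 for the 13 B cell genes in NBC mice 13, 11, 9 and 5, against 0.31, 0.08, 0.02 and 0.31 in placebo mice 6, 8, 10 and 14. The 10 T cell genes stood at -1.40, -0.94, 0.63 and 0.63 in the NBC mice, against 0.67, 0.32, -0.16 and 0.25 in the placebo mice. The 4 homing genes stood at -1.31, -1.11, 0.64 and 0.83 in the NBC mice, against 0.58, 0.13, 0.04 and 0.21 in the placebo mice. Mice 13 and 11 were lowest for all 3 roles, with mouse 11 the lower in B cell genes and mouse 13 the lower in T cell and homing genes. The 3 shared genes gave a narrower spread, from -0.62 to 0.47 in the NBC mice and from -0.32 to 0.23 in the placebo mice.

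**Figure D3:**
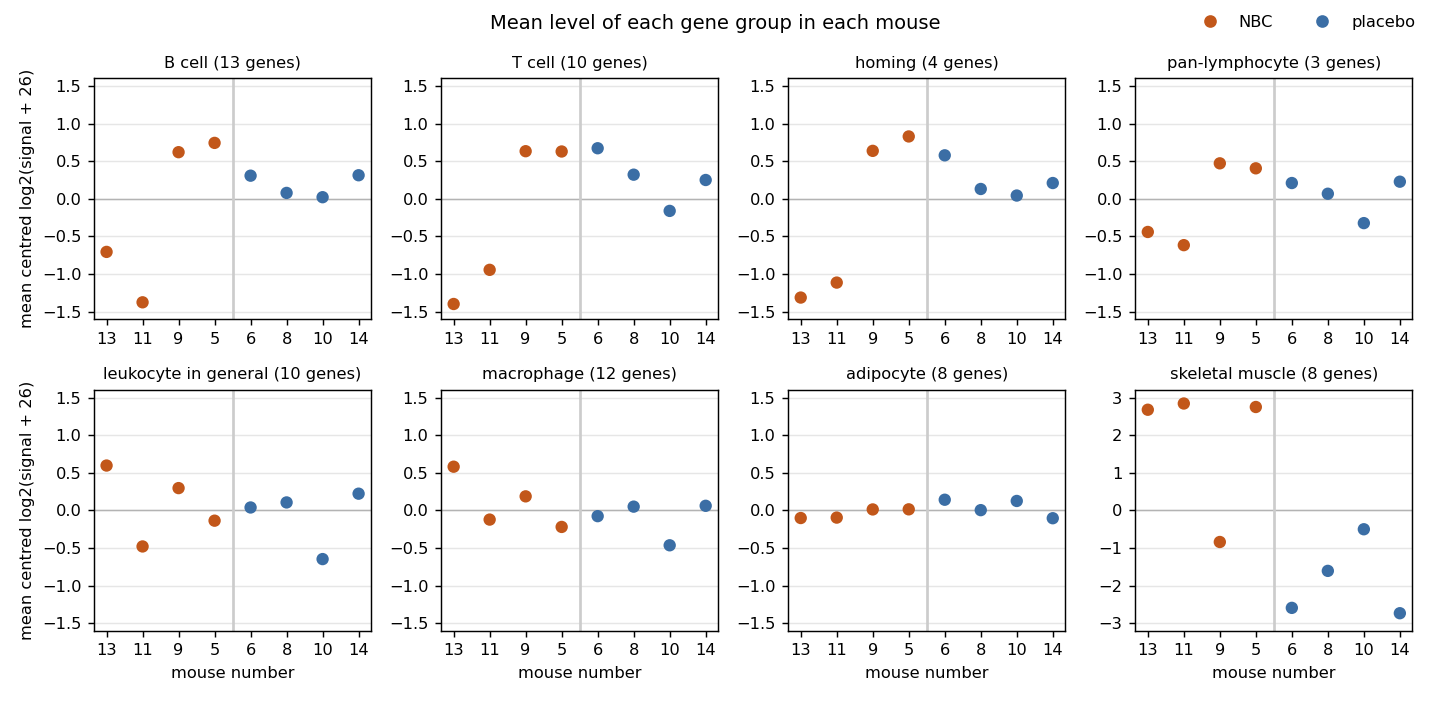
Mean of the centred log2(signal + 26) values of each gene group (vertical axis) in each mouse (horizontal axis, NBC left of placebo). The B cell, T cell and homing panels place mice 13 and 11 lowest, the macrophage panel places mouse 13 highest at 0.58, and the muscle panel, whose axis is wider, has mice 13, 11 and 5 at the top.

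The comparison of NBC with placebo mice asked whether supplementation went with another level of these transcripts. No gene passed. Signals were compared as log2(signal + 26) with limma's moderated test over 22519 probe sets that were not dim, and 26 of the 30 genes were among them. At an adjusted p under 0.05, 0 of the 26 genes and 0% of all probe sets were called. At an unadjusted p under 0.05, 0 of the 26 genes were called, against 6.22% of the probe sets and 5.44% of the 11662 genes that passed the filter. The smallest unadjusted p was 0.068, for Cd8a. The groups overlapped in all 30 genes. They did not overlap in 3.54% of the 18193 genes with a probe set and in 3.93% of those past the filter (1.7% higher and 2.23% lower in NBC). In so few genes, counts of 0 are close to these shares over all genes.

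The log2 difference (NBC minus placebo) lay below 0 in 22 of the 30 genes, against 51.5% of all genes, and its median was -0.39, against -0.01 in all genes. By role the median was -0.43 for B cell genes (9 of 13 below 0), -0.39 for T cell genes (8 of 10), -0.59 for homing genes (3 of 4) and -0.20 for the shared genes (2 of 3). Cd79a averaged 845 ± 790 in NBC and 1159 ± 171 in placebo mice (SD, n = 4 each), and its log2 values differed by -1.19 (SE 0.80, limma adjusted p = 0.822). Lat averaged 518 ± 546 in NBC and 805 ± 57.3 in placebo mice (SD, n = 4 each), and its log2 values differed by -1.59 (SE 0.89, limma adjusted p = 0.797). Ltb averaged 1969 ± 1702 in NBC and 2239 ± 470 in placebo mice (SD, n = 4 each), and its log2 values differed by -0.75 (SE 0.69, limma adjusted p = 0.864). In each of these the SD in the NBC mice was nearly as large as their mean, or larger. The difference lay above 0 in 8 of the 30 genes, among them Cd72 (0.48, SE 0.31), Cxcr5 (0.37, SE 0.26) and Coro1a (0.28, SE 0.26).

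The direction depended on the scale and on mice 13 and 11. Ms4a1, Bank1, Cd3d, Cd3e, Cd2 and Cd4 had a higher mean signal but a lower mean log2 value in NBC than in placebo mice. Cd3d, for example, averaged 912 ± 1087 in NBC and 787 ± 232 in placebo mice (SD, n = 4 each), with a log2 difference of -1.39 (SE 1.22). Without NBC mice 13 and 11, which were left out because of these same values, 22 of the 26 genes had a log2 difference above 0, against 6 of 26 with all mice, and 18 changed sign. Cd3d then differed by 1.16 (SE 0.30), Ccr7 by 1.18 (SE 0.37), Cd79a by 0.40 (SE 0.18) and Ltb by 0.63 (SE 0.21). Zap70 differed by -1.08 (SE 0.75). These values describe 2 NBC mice against 4 placebo mice and carry no test.

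**Figure D4:**
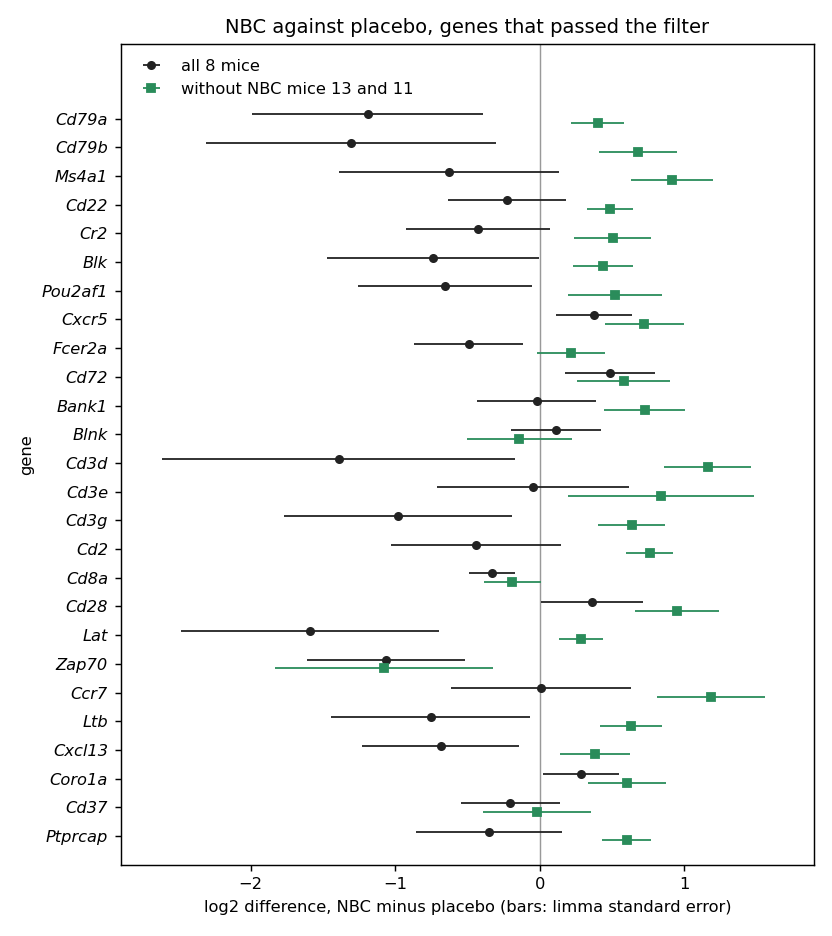
Log2 difference between NBC and placebo mice (horizontal axis, bars are limma standard errors) for the 26 genes that passed the filter, over all 8 mice (circles) and without NBC mice 13 and 11 (squares). With all mice 6 of 26 points lie above 0, and without mice 13 and 11 it is 22 of 26. These mice were left out because of their low values in the same genes, so the upward shift was largely fixed in advance. The squares carry no test.

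Because mice 13 and 11 stood apart in these same genes, no correlation over all 8 mice is given. The other 6 mice were thus a choice made after seeing the data, and the permutations mixed NBC with placebo mice. The p-values below therefore only describe these 6 mice. Over the other 6 mice, Cd79b and Cd3g varied together on the log2 scale (Pearson r = 0.98, exact permutation p = 0.0042, adjusted p = 0.013 over 3 pairs; Spearman rho = 0.94, exact permutation p = 0.017, adjusted p = 0.050; two-sided, n = 6). Without the 2 mice farthest from the median in Cd79b, NBC mouse 5 and placebo mouse 10, r was 0.92 over 4 mice (adjusted exact permutation p = 0.292). Too few mice remain there for a p under 0.05. Cd79b and Cxcl13 gave r = 0.25 (exact permutation p = 0.683, adjusted p = 0.785, rho = 0.26 with p = 0.658, n = 6), and 0.88 without the same mice. Cd3g and Cxcl13 gave r = 0.17 (exact permutation p = 0.785, adjusted p = 0.785, rho = 0.31 with p = 0.564, n = 6), and 0.93 without the 2 farthest mice. The relation was thus seen for 1 pair, on Pearson's r, and its adjusted p did not stay under 0.05 without NBC mouse 5 or placebo mouse 8, 10 or 14 (0.05 to 0.075). With 1 mouse fewer the exact p moves in coarse steps. It cannot tell dependence on those mice from the smaller number of mice. No relation with the follicular chemokine was detectable with 6 mice.

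Genes outside the 33 with the profile most like theirs were ranked by Pearson r with the B cell or T cell mean over the 8 mice. The rank rests largely on mice 13 and 11. Closest to the B cell mean were Ly6d, H2-Oa, Noc3l, H2-DMb2 and Trbv1, and closest to the T cell mean were Ms4a4b, Trbv1, Traf3ip3, Glycam1 and Fcmr. Ly6d, a surface protein of early B cells, read 45.4, 26.8, 901 and 879 in the NBC mice, against 571, 382, 388 and 552 in the placebo mice. Glycam1 encodes a mucin-like ligand of L-selectin made by the high endothelial venules of lymph nodes. It read 37.2, 18.4, 2397 and 3138 in the NBC mice, against 1722, 1139, 897 and 728 in the placebo mice. All 9 genes had their 2 lowest signals in mice 13 and 11, an order that this way of ranking largely fixed in advance.

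Lists of related cell types were set beside these genes. Of 15 other B cell genes with a probe set, 4 had their 2 lowest signals in mice 13 and 11 (Spib, Fcmr, Tnfrsf13c and Ikzf3), as had 6 of 23 other T cell genes, 2 of 8 plasma cell and immunoglobulin genes and 2 of 8 natural killer genes, against 3.61% of all genes. The immunoglobulin joining chain gene Jchain read 1659, 1162, 3890 and 2476 in the NBC mice, against 12523, 4706, 2876 and 4858 in the placebo mice (log2 difference -1.36, SE 0.48, unadjusted p = 0.020, not called after adjustment). Mzb1, a chaperone for immunoglobulin assembly, had the same 2 lowest mice and a log2 difference of -1.15 (SE 0.52). The other members of that list did not have this order, and 5 of its 8 genes lay above 0, with a list median of 0.07. The immunoglobulin heavy chain gene Ighm differed by 0.07 (SE 0.15), Xbp1 by 0.06 (SE 0.11), Prdm1 by 0.23 (SE 0.19), Sdc1 by 0.09 (SE 0.27) and Derl3 by 0.87 (SE 0.44). Ighm was read by the brightest of its 11 probe sets, at signals of 46986 to 62000. These exceeded at least 99.3% of the probe sets on every array, and its other probe sets are not given here. In the high endothelial venule list 1 of 6 genes with a probe set, Glycam1, had that order. The summed signal of this list was 2214 to 4963 in NBC and 2222 to 3654 in placebo mice. Ackr1, its 1 other member past the filter and a chemokine-binding protein of venules, read 1125, 1505, 1747 and 980 in the NBC mice, against 1054, 1218, 1397 and 1001 in the placebo mice (log2 difference 0.17, SE 0.20). Madcam1, Chst4, Fut7 and Chst2 lay below the filter. The order was seen in 1 of 9 genes of fibroblastic reticular and follicular dendritic cells (Clu; list median 0.01), in 0 of 6 genes of lymphatic endothelium (list median -0.20) and in 1 of 9 dendritic cell genes (Ccl22; list median -0.30).

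No member of the macrophage list (0 of 12) or the general leukocyte list (0 of 10) had mice 13 and 11 as its 2 lowest. With 3.61% of all genes in that order, such counts are close to the share over all genes. The mean centred log2 level of the leukocyte list was 0.60, -0.48, 0.30 and -0.14 in NBC mice 13, 11, 9 and 5. In placebo mice 6, 8, 10 and 14 it was 0.04, 0.11, -0.65 and 0.22. The summed macrophage signal was 182998 to 277433 in NBC and 140139 to 200772 in placebo mice, highest in NBC mouse 13. In that list 2 of 12 genes had an unadjusted p under 0.05, against 5.44% of all genes past the filter, Csf1r (0.33, SE 0.13) and C1qa (0.31, SE 0.13), neither called after adjustment. Mmrn1, of the lymphatic list, differed by -0.65 (SE 0.28, unadjusted p = 0.044, not called after adjustment). Gzmb, a cytotoxic granule protease in the natural killer list, lay below the filter and read 180 to 282 in the NBC and 26.9 to 148 in the placebo mice, without overlap. The adipocyte markers were present in every mouse, with a summed signal of 543060 to 606900 in NBC and 537400 to 649490 in placebo mice. Lipe, the hormone-sensitive lipase of adipocytes, read 33528 to 35969 in the NBC and 36449 to 42740 in the placebo mice, without overlap (log2 difference -0.19, SE 0.11, limma adjusted p = 0.799). The summed signal of 8 skeletal muscle genes was 128959, 143038, 15361 and 135401 in NBC mice 13, 11, 9 and 5, while the placebo mice spanned 4202 to 20243. All 8 muscle genes had an unadjusted p under 0.05, against 5.44% of all genes past the filter, and 0 were called after adjustment. Pvalb, a calcium buffer of fast muscle, read 1128 to 15471 in the NBC and 98.0 to 1007 in the placebo mice, and its log2 values differed by 4.18 (SE 0.93, limma adjusted p = 0.653). Actn3 differed by 4.03 (SE 0.91), Ckm by 4.02 (SE 0.93) and Tnni2 by 4.06 (SE 0.95). Mouse 5 was thus high in both muscle and lymphocyte genes, and mouse 9 in lymphocyte genes only. The part of lymph node tissue, muscle or macrophages in the differences between mice was not tested.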

How the data were processed

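The authors deposited linear signal intensities, 1 value for each probe set of each array. The tool is MAS5 per the submitters' processing notes, and no version accompanies it. After trimming 2% of probe sets at either end, the mean intensity equalled 1500.01 for every array, and no further scaling was applied. Detection calls and batches were not used here.

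Groups and mouse numbers came from the sample titles. Of 45101 probe sets, 64 controls were left out. By the platform annotation 34945 probe sets carried 1 gene symbol, 932 carried several and 9160 carried none. Signals were taken as log2(signal + 26), which understates differences of dim transcripts. Probe sets with a mean at or above the median (a signal of about 275) were tested, 22519 in all, standing for 11662 genes. A gene was read by its brightest probe set, and 11 of the 30 genes had more than 1. NBC was compared with placebo with limma 3.58.1 in R 4.3.3 (lmFit, eBayes, no covariate), with Benjamini-Hochberg adjustment over all probe sets tested and a threshold of 0.05. The fit was tested on simulated arrays. Correlations used exact permutation tests in Python 3.11.15. Promoter windows were from RefSeq.

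The members, lists and tests were chosen with earlier results of these data known. Values in every mouse were to be given for genes with an unadjusted p under 0.05 or no overlap (none) and for the brightest 4 B cell, 4 T cell, 3 homing and 1 shared gene. The other genes given by mouse were added after their values were seen. Alternatives were other pseudocounts, filters, scalings, eBayes settings, the mean over a gene's probe sets, and each mouse left out. Leaving out NBC mice 13 and 11 together was chosen after seeing the data.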

Additional observations from a re-analysis of the deposited data

Results flagged for a closer look

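In the placebo mice, the Cd5 signal of mouse 10 (11.8) lay far from those of the other 3 placebo mice (324 to 470). On the log2 scale its gap to the nearest mouse was 0.864 of the group's range, above Dixon's 95% critical value for 4 samples. It was the 1 such value among 70 groups of 4 mice examined, and chance alone marks about 1 in 20. Cd5 lay below the filter on dim probe sets.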

How the results depend on the processing

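No probe set was called under the alternative pseudocounts, filters, scalings or eBayes settings, nor with any mouse but NBC mouse 9 left out (0 calls). Without NBC mouse 9 there were 18 calls among all 22519 probe sets tested, which are not a count of lymphocyte genes. Under settings that left out no mouse, 7 of 213 values of single genes changed sign. Ccr7 became -0.021 with a pseudocount of 1, -0.0064 after quantile normalization, -0.0034 after median centring and -0.29 with array weights. Blnk became -0.058 with array weights. With the mean over all probe sets, Cd28 became -0.18 and Cd37 0.082. With 1 mouse left out, 20 of 208 values changed sign: Cd22 ranged from -0.49 to 0.21, Cr2 from -0.85 to 0.015, Blk from -1.15 to 0.11, Bank1 from -0.32 to 0.29, Blnk from -0.16 to 0.30, Cd3e from -0.55 to 0.47, Cd2 from -0.89 to 0.064, Cd28 from -0.00077 to 0.62, Ccr7 from -0.43 to 0.49, Cd37 from -0.43 to 0.050 and Ptprcap from -0.71 to 0.17. The B cell median then ranged from -0.68 to 0.11, and was above 0 without NBC mouse 11. The T cell median ranged from -0.58 to -0.12 and the homing median from -0.84 to -0.18, both nearest 0 without NBC mouse 13. Cd79a ranged from -1.74 to -0.43, Lat from -2.26 to -0.95 and Ltb from -1.24 to -0.14. The median of the shared genes ranged from -0.40 to 0.17, and was above 0 without mouse 13 or 11. Without NBC mice 13 and 11 together, a choice made after seeing the data, the median was 0.50 for B cell, 0.70 for T cell, 0.51 for homing and 0.60 for shared genes. The values that changed sign were then Cd79a 0.40, Cd79b 0.68, Ms4a1 0.92, Cd22 0.48, Cr2 0.50, Blk 0.44, Pou2af1 0.52, Fcer2a 0.22, Bank1 0.73, Blnk -0.14, Cd3d 1.16, Cd3e 0.84, Cd3g 0.64, Cd2 0.76, Lat 0.28, Ltb 0.63, Cxcl13 0.38 and Ptprcap 0.60. The correlation of Cd79b with Cd3g was 0.92 without the 2 farthest mice and 0.970 to 0.998 with 1 mouse left out. Its adjusted p was no longer past the threshold without NBC mouse 5 or placebo mouse 8, 10 or 14, where the exact p moves in coarse steps. The cause of these changes was not tested, beyond the smaller number of mice. No paired analysis was possible because no mouse number occurs in both groups. Signals near the 10th percentile of all values (26.5), such as Cd3d in mice 13 and 11, carry little information on level.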
